A study of Homo sapiens with 6 samples.

Results

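The genes described here build and run the microRNA silencing pathway. They were taken as the probe sets whose gene symbol in the platform annotation is one of 10 named members: DROSHA, DGCR8, XPO5, DICER1, TARBP2, AGO1, AGO2, AGO3, TNRC6A and TNRC6B. A probe set was named for 5 of the 10 (DGCR8, XPO5, TARBP2, TNRC6A and TNRC6B), with 1 probe set each among 16098 named probe sets (14884 genes). DROSHA, DICER1, AGO1, AGO2 and AGO3 had no probe set named for them alone here, also under the older EIF2C names of the Argonautes, and were not analysed.

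The arrays came from HCT116 cells (spelled HTC116 in the sample labels), an established human colorectal carcinoma line, in 2 groups of 3 arrays. One group was stably transduced cells labelled as overexpressing miR-196b (miR1966OE in the titles), and the other was cells transduced with an empty vector. Both groups thus carried a vector and grew in the same medium. The labels do not name the promoter that drives the microRNA, or say whether the lines were pools or single clones, or whether replicates were transduced separately. The p-values therefore cover only the spread among the arrays of a group. Of the colorectal epithelial markers 7 of 8 were measured, and 6 of their 8 probe sets, EPCAM and KRT19 among them, lay in the brighter 60% of named probe sets, while VIL1 and KRT20 lay in the dimmer part. Their summed log2 value was 59.8 to 60.7 in the arrays labelled miR-196b and 61.3 to 61.6 in the empty-vector arrays. These sums did not overlap, and KRT18 entered them through 2 probe sets. Changes were negative except at KRT19 (0.0024) and VIL1 (0.06), the largest being at KRT20 (-0.33), CDX2 (-0.26) and a KRT18 probe set (-0.22). Of the 8 probe sets 0 passed the test. Blood markers (CD14 and CSF1R, 2 of 6 measured) summed to 6.997 to 7.39 in the arrays labelled miR-196b and 6.74 to 7.09 in the empty-vector arrays, both in the dimmer part. Fibroblast markers (DCN, LUM and THY1, 3 of 6 measured) summed to 9.17 to 9.67 in the arrays labelled miR-196b and 9.24 to 9.61 in the empty-vector arrays, with THY1 alone in the brighter part. The part of these markers in the results was not tested.

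In animal cells a primary microRNA transcript is cut in the nucleus by the Microprocessor, made of the nuclease DROSHA and its RNA-binding partner DGCR8. Exportin-5, encoded by XPO5, carries the hairpin to the cytoplasm, where DICER1, with the double-stranded RNA-binding protein TARBP2, cuts it to a duplex. One strand is loaded into an Argonaute protein, and the TNRC6 (GW182) proteins link Argonaute to the enzymes that shorten the poly(A) tail, remove the cap and repress translation. The comparison asks whether messenger RNA of this machinery differed in cells made to carry extra microRNA.

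The microRNA that the labels name is shown first, because the labels separate the groups by it, with miR-196a of the same family and let-7a beside it. All mature sequences are from RefSeq (GRCh38.p14), written 5′ to 3′ with the seed, bases 2 to 8, in capitals. The seed pairs with target transcripts.
miR-196b-5p: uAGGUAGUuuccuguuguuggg
miR-196a-5p: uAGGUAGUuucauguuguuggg
let-7a-5p: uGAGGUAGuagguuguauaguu
The miR-196 pair shared the seed and differed at 1 position (C12A, counted from 1 at the 5′ end, with miR-196b first). The longest run that miR-196b-5p shared with let-7a-5p was AGGUAGU, of 7 bases, at bases 2 to 8 of miR-196b-5p and bases 3 to 9 of let-7a-5p. Their seeds were therefore shifted by 1 base. The miR-196b-5p sequence lies on the minus strand at chr7:27169528-27169549, the copy of miR-196a-5p shown (MIR196A2) on the plus strand at chr12:53991762-53991783, and the copy of let-7a-5p shown (MIRLET7A1) on the plus strand at chr9:94175962-94175983.

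The array reads precursor transcripts, not mature microRNAs. The MIR196B probe set read 8.21, 7.93 and 8.01 in the arrays labelled miR-196b, against 8.09, 7.91 and 7.91 in the empty-vector arrays (log2 signal), so the groups overlapped. The MIR196A2 probe set read 10.6, 10.5 and 10.8 in the arrays labelled miR-196b, against 3.09, 3.21 and 2.88 in the empty-vector arrays (log2 change 7.55, SE 0.12, limma adjusted p = 4.53e-07). Its empty-vector level was not tested against background. MIR196A1 read 4.60, 4.86 and 4.88 in the arrays labelled miR-196b, against 4.97, 4.78 and 5.40 in the empty-vector arrays. The separation of the groups thus showed at a probe set of the family, but not at the one named in the labels.

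None of the 5 measured members passed the test. Their log2 changes, the arrays labelled miR-196b minus the empty-vector arrays, ran from -0.06 for DGCR8 to 0.19 for TNRC6B, with a median of 0.03, and 3 were positive and 2 negative. In limma with Benjamini-Hochberg adjustment over all 16098 named probe sets, 0 of 5 had an adjusted p below 0.05 (adjusted p = 0.507 to 0.910), and 0 of 5 had an unadjusted p below 0.05. Over all named probe sets 9 passed (0.0559%; 0.0248% higher and 0.0311% lower) and 1589 had an unadjusted p below 0.05 (9.87%; 5.73% higher and 4.14% lower). Their median log2 change was 0.01. Groups did not overlap for 2 of the 5 members, 1 higher and 1 lower, where 17.2% of all named probe sets had such groups (10.0% higher and 7.18% lower), and with 5 members this count is no more than a description. All 5 of the 95% intervals included 0, the lowest bound being 0.80-fold (TNRC6A) and the highest 1.30-fold (TNRC6B), while that of DGCR8 was narrower, at 0.863 to 1.07-fold. A whole culture was measured, so fewer cells with a transcript and less of it per cell cannot be told apart.

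**Figure D1:**
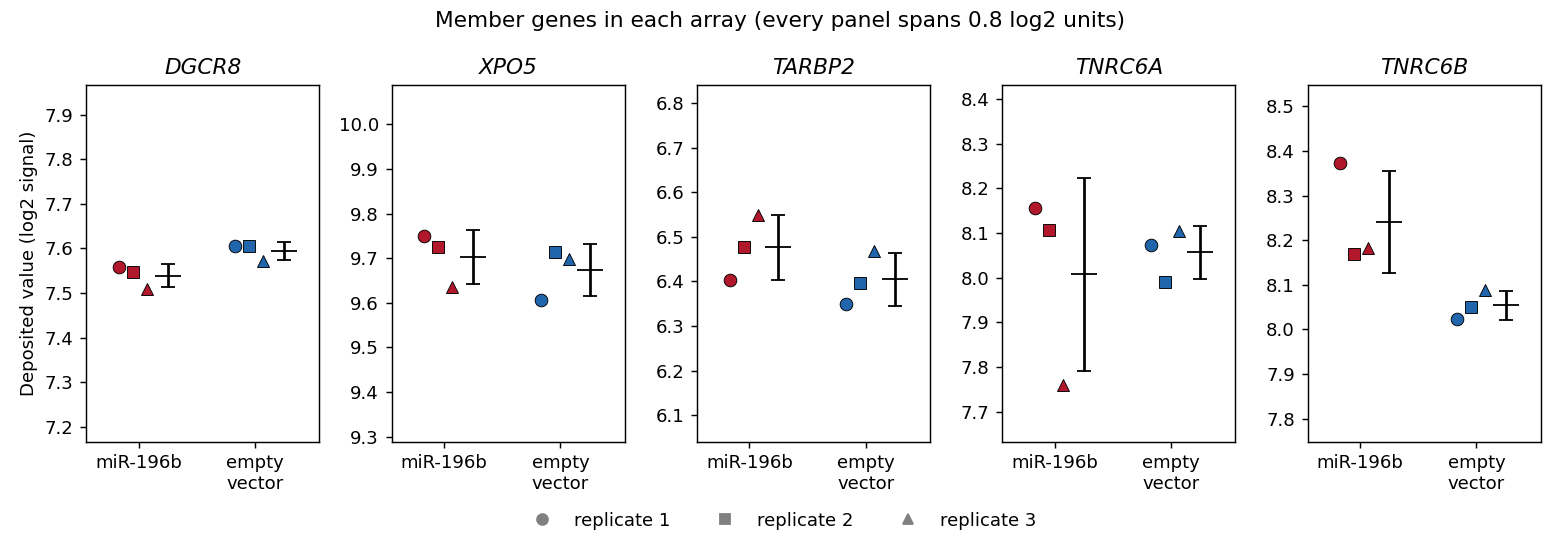
Deposited log2 signal of each measured member in each array, arrays labelled miR-196b on the left (red) and empty-vector arrays on the right (blue). Symbols mark the replicate number and bars the mean and SD (n = 3). Only TNRC6B (higher) and DGCR8 (lower) had groups that did not overlap, and replicate 3 labelled miR-196b stood low for TNRC6A.

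At the first step of the pathway, DGCR8, the RNA-binding subunit of the Microprocessor, read 7.56, 7.55 and 7.51 in the arrays labelled miR-196b, against 7.61, 7.60 and 7.57 in the empty-vector arrays (log2 signal). All 3 labelled arrays lay below all 3 empty-vector arrays, but the gap between the nearest arrays was 0.0135. DGCR8 averaged 7.54 ± 0.0259 in the arrays labelled miR-196b and 7.59 ± 0.0195 in the empty-vector arrays (SD, n = 3 each). Its log2 change of -0.06 had an SE of 0.07, and the 95% interval ran from -0.21 to 0.10 (limma adjusted p = 0.806), with an exact two-sided permutation p of 0.1, below which groups of 3 arrays cannot go. Its arrays were unusually close: 99.3% of named probe sets had a larger within-group SD than its 0.0229. With its own spread alone, without variance moderation, the unadjusted p of DGCR8 was 0.0405 and its adjusted p 0.483.

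DGCR8 is itself a substrate of the complex, since the Microprocessor is known to cut hairpins within the DGCR8 transcript and so to limit DGCR8. In RefSeq the microRNA genes MIR3618 and MIR1306 lie inside DGCR8 on the same strand, and a mature sequence of each hairpin is shown, again with the seed in capitals, because it is cut from the transcript of DGCR8. No probe set was named for either gene here.
miR-3618: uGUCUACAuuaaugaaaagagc
miR-1306-3p: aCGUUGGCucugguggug
They lie at chr22:20085797-20085818 and chr22:20086112-20086129, both on the plus strand of GRCh38.p14.

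At the export step, XPO5, the carrier of hairpins out of the nucleus, read 9.75, 9.73 and 9.64 in the arrays labelled miR-196b, against 9.61, 9.71 and 9.70 in the empty-vector arrays. The groups overlapped, with the lowest array in the empty-vector group. XPO5 had a log2 change of 0.03 (SE 0.07, limma adjusted p = 0.910), and its 95% interval in fold terms was 0.905 to 1.15.

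At the DICER1 step, TARBP2 read 6.40, 6.48 and 6.55 in the arrays labelled miR-196b, against 6.35, 6.40 and 6.47 in the empty-vector arrays. The groups overlapped, though the highest array was a labelled one and the lowest an empty-vector one. TARBP2 had a log2 change of 0.07 (SE 0.08, 95% interval -0.11 to 0.25, limma adjusted p = 0.779). DICER1 itself was not analysed, but DICER1-AS1, a noncoding transcript whose gene overlaps DICER1, was measured. DICER1-AS1 read 5.79, 5.41 and 5.70 in the arrays labelled miR-196b, against 5.30, 5.43 and 5.49 in the empty-vector arrays. Replicate 2 labelled miR-196b lay among the empty-vector arrays. DICER1-AS1 had a log2 change of 0.23, and its 95% interval ran from -0.04 to 0.49 (limma adjusted p = 0.563), and it was 0.34 without that array (limma adjusted p = 0.430) and 0.15 without replicate 1 labelled miR-196b.

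TNRC6B, a scaffold of the silencing complex, stood furthest apart among the members. It read 8.37, 8.17 and 8.18 in the arrays labelled miR-196b, against 8.02, 8.05 and 8.09 in the empty-vector arrays (log2 signal). All 3 labelled arrays were above all 3 empty-vector arrays, by a gap of 0.0794 between the nearest, and replicate 1 of the labelled arrays was the highest. TNRC6B averaged 8.24 ± 0.114 in the arrays labelled miR-196b and 8.05 ± 0.0327 in the empty-vector arrays (SD, n = 3 each), a ratio of 1.14. The log2 change of 0.19 had an SE of 0.08 and a 95% interval of -0.01 to 0.38, which just included 0 (limma unadjusted p = 0.0572, adjusted p = 0.507; exact two-sided permutation p = 0.1, the smallest possible). By unadjusted p it stood at rank 1808 of the 16098 named probe sets, and 21.6% of them had a larger absolute change. Without replicate 1 labelled miR-196b the log2 change of TNRC6B was 0.12 (limma adjusted p = 0.653).

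TNRC6A, the paralog first described as GW182, read 8.16, 8.11 and 7.76 in the arrays labelled miR-196b, against 8.07, 7.99 and 8.11 in the empty-vector arrays. The other two labelled arrays lay above each empty-vector array, and replicate 3 labelled miR-196b lay below all the others. TNRC6A had a log2 change of -0.05 (SE 0.12, 95% interval -0.32 to 0.22, limma adjusted p = 0.908), and without that array it was 0.07 (limma adjusted p = 0.821). Its direction therefore rested on 1 array, and its within-group SD of 0.158 was the largest of the 5 members.

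TNRC6C, the remaining paralog, is no member but was measured. It read 8.03, 7.97 and 8.10 in the arrays labelled miR-196b, against 7.88, 7.95 and 7.99 in the empty-vector arrays, with overlapping groups (log2 change 0.09, SE 0.08, limma adjusted p = 0.710). The paralogs were compared within each array as differences of log2 values, a comparison chosen after their values were seen. The offset of such a difference depends on the probes, so only its shift between groups is read. TNRC6B minus TNRC6A was 0.218, 0.0608 and 0.423 in the arrays labelled miR-196b, against -0.0503, 0.0596 and -0.0161 in the empty-vector arrays. The groups did not overlap, but the nearest arrays (0.0608 and 0.0596) almost met, and the highest was replicate 3 labelled miR-196b, where TNRC6A was low. The shift was 0.24 on the log2 scale (exact two-sided permutation p = 0.1, the smallest possible, and 0.3 after Benjamini-Hochberg adjustment over 3 pairs). TNRC6B minus TNRC6C shifted by 0.10 (exact permutation p = 0.4, adjusted 0.6) and TNRC6A minus TNRC6C by -0.14 (exact permutation p = 0.7, adjusted 0.7). Groups of 3 arrays cannot reach a p below 0.1 in this test, so it does not settle whether the TNRC6 paralogs changed unequally.

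**Figure D2:**
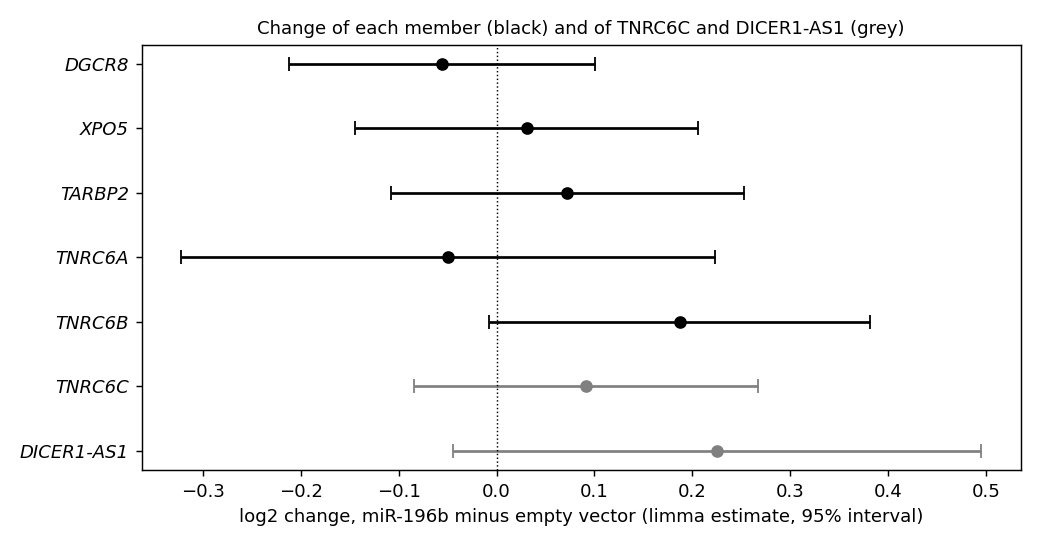
Log2 change of each measured member (black) and of TNRC6C and DICER1-AS1 (grey), arrays labelled miR-196b minus empty-vector arrays, with 95% intervals from limma (3 arrays a group). Every interval includes 0, and that of TNRC6B starts at -0.01.

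The upstream sequences of DGCR8 and TNRC6B are shown because their groups were separate, in opposite directions, and both lie on chromosome 22. Each is the 250 bases ahead of the RefSeq transcript start (GRCh38.p14, plus strand), with capitals marking the GC box (GGGCGG), the CCAAT box (CCAAT) and the TATA box (TATAAA) on either strand.
DGCR8: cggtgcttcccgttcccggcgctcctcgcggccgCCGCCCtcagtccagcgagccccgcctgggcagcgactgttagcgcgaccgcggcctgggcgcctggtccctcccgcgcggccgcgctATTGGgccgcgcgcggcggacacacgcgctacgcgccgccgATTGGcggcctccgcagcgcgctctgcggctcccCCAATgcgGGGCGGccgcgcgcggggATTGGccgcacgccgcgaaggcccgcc
TNRC6B: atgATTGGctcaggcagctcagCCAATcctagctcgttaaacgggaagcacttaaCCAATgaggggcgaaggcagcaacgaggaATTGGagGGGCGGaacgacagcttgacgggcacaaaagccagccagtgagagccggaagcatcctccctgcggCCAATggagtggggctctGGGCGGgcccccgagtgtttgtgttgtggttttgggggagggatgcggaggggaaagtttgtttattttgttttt
The DGCR8 window is chr22:20079991-20080240 and the TNRC6B window chr22:40044584-40044833. DGCR8 held 2 GC boxes and 4 CCAAT boxes, and TNRC6B held 2 GC boxes and 5 CCAAT boxes, while neither held the TATA letters. Of 35116 windows of the same length, 42.6% held a GC box, 32.0% a CCAAT box and 10.7% a TATA box. The DGCR8 window was far richer in CG dinucleotides (48) than the TNRC6B window (12), against a median of 11 over all windows. The members with overlapping groups lay between, with 34 for XPO5, 21 for TNRC6A, and 15, 22 and 23 for the TARBP2 starts. A link between CG count and direction of change was not tested. These matches describe letters and are not evidence of binding.

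Leaving out 1 array at a time kept the direction of DGCR8 (log2 change -0.07 to -0.04), TARBP2 (0.04 to 0.11) and TNRC6B (0.12 to 0.22). XPO5 was at -0.0025 without replicate 1 of the empty-vector arrays, and positive with any other array left out. No member passed the adjusted threshold with any array left out.

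**Figure D3:**
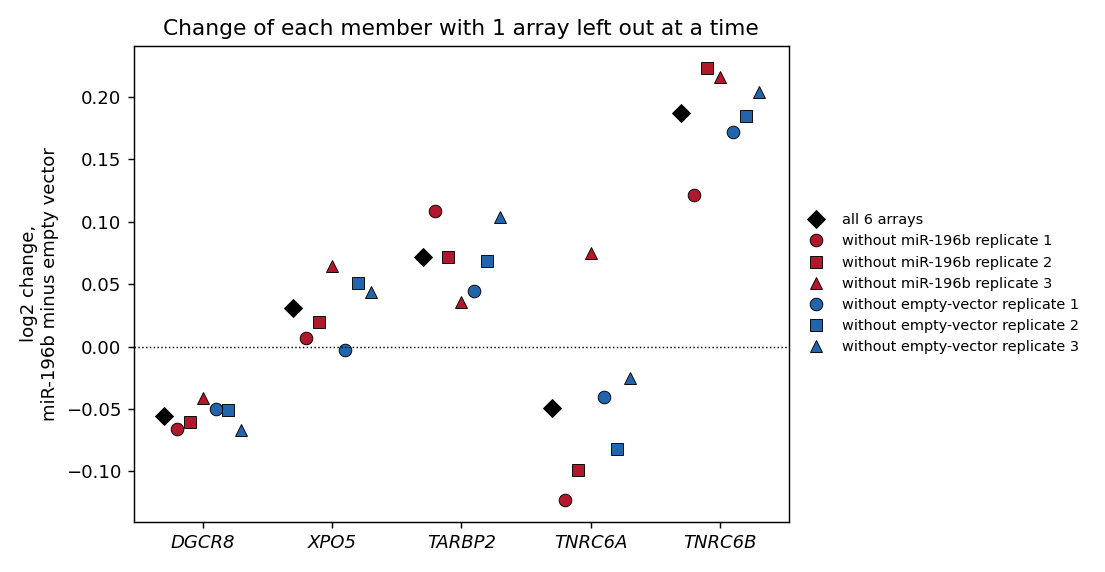
Log2 change of each member, arrays labelled miR-196b minus empty-vector arrays, with all 6 arrays (black) and with 1 array left out at a time (red, labelled miR-196b; blue, empty vector). TNRC6B stays between 0.12 and 0.22, and TNRC6A lies at 0.07 without replicate 3 labelled miR-196b and below 0 otherwise.

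Beyond the members, 101 other genes of the pathway were listed by role, of which 56 were measured through 57 probe sets. None of the 57 passed the adjusted threshold in limma (adjusted p = 0.407 to 0.997). An unadjusted p below 0.05 was found for 5 of them (8.77%), 4 higher and 1 lower, against 9.87% of all named probe sets. Groups did not overlap for 13 of the 57 (22.8%), 7 higher and 6 lower, against 17.2%. By role this held for 5 of 15 probe sets of deadenylation, decapping and repression, 2 of 6 of the loading chaperones and 3 of 10 of the Argonaute-associated regulators. It held for 2 of 11 of tailing, trimming and turnover, 1 of 10 of the Microprocessor cofactors and 0 of 3 of export and import. The share with a small p was thus close to that of all named probe sets.

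Among enzymes that tail, trim or degrade microRNAs and related RNAs, 11 of 16 genes were measured, 5 with positive and 6 with negative changes (median -0.01). The smallest p was that of DIS3L2, a 3′ exonuclease that degrades uridylated let-7 precursors. DIS3L2 read 7.66, 7.66 and 7.72 in the arrays labelled miR-196b, against 7.38, 7.47 and 7.50 in the empty-vector arrays. The groups did not overlap, and the log2 change was 0.23 with an SE of 0.07 (limma unadjusted p = 0.0140, adjusted p = 0.407). SND1, a Tudor nuclease found with the silencing complex, read 9.01, 9.00 and 9.00 in the arrays labelled miR-196b, against 8.75, 8.77 and 8.86 in the empty-vector arrays. Its groups did not overlap either (log2 change 0.21, limma unadjusted p = 0.0200, adjusted p = 0.435). LIN28A, which blocks let-7 processing, was in the dimmest 40% of probe sets and had a log2 change of -0.14 (limma adjusted p = 0.616), or -0.08 without replicate 2 labelled miR-196b.

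Of the enzymes that TNRC6 proteins recruit, and the repressors that act with them, 15 of 28 genes were measured. Changes were positive for 13 of the 15 and negative for 2, with a median of 0.06. CNOT9 and CNOT11 were the only CNOT genes measured, so the count covers little of that deadenylase complex. Over all named probe sets 8365 were positive and 7733 negative. PAN3, which anchors the PAN2 deadenylase to TNRC6 proteins, read 9.13, 9.00 and 9.07 in the arrays labelled miR-196b, against 8.82, 8.90 and 8.87 in the empty-vector arrays. All labelled arrays were higher (log2 change 0.21, SE 0.07, limma unadjusted p = 0.0240, adjusted p = 0.448). GIGYF2, which represses translation with the cap-binding protein EIF4E2, read 7.92, 7.94 and 7.93 in the arrays labelled miR-196b, against 7.78, 7.78 and 7.72 in the empty-vector arrays. Its groups were separate too (log2 change 0.17, limma unadjusted p = 0.0384, adjusted p = 0.485). DCP1B, a decapping cofactor, was one of the 2 genes with a negative change, at -0.18, with groups that did not overlap (limma adjusted p = 0.526).

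The Microprocessor's cofactors and other nuclear factors, 10 of 16 measured, had 3 positive and 7 negative changes (median -0.05). METTL3, the RNA methyltransferase that marks primary microRNA transcripts, read 8.20, 8.25 and 8.23 in the arrays labelled miR-196b, against 8.37, 8.37 and 8.38 in the empty-vector arrays. All labelled arrays were lower (log2 change -0.15, SE 0.07, limma unadjusted p = 0.0609, adjusted p = 0.513). HNRNPA1, an RNA-binding protein that assists the processing of some hairpins, had -0.09, and the RNA helicase DDX17 had 0.07 (0.03 to 0.11 with 1 array left out). In this group METTL3 alone, 1 of 10 (10.0%), had groups that did not overlap, against 17.2% of all named probe sets.

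For nuclear export and import, 3 of 6 genes were measured, with log2 changes of -0.05 for RANGAP1, the activator of the RAN GTPase, 0.02 for the import receptor TNPO1 and 0.02 for IPO8, an import receptor for Argonaute. With 1 array left out RANGAP1 ran from -0.09 to -0.0079 and TNPO1 from 0.01 to 0.03. Of the chaperones that load Argonaute, 5 of 12 genes (HSPA4, STIP1, FKBP5, CDC37 and PTGES3) were measured through 6 probe sets. Of these 6, 5 had negative changes (median -0.09), with PTGES3 entering through 2 probe sets and STIP1 at only -0.0011. Negative changes were found for 7733 of the 16098 named probe sets. CDC37, an HSP90 cochaperone, had -0.14 (limma adjusted p = 0.576), and PTGES3, the cochaperone p23, had -0.15 and -0.08 at its 2 probe sets. The groups did not overlap for CDC37 and for the PTGES3 probe set at -0.08, all labelled arrays being lower, and they overlapped for the PTGES3 probe set at -0.15.

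Of regulators found with Argonaute, 10 of 16 were measured, 6 with positive and 4 with negative changes (median 0.03). AJUBA, a LIM protein that binds Argonaute, read 5.85, 6.03 and 5.97 in the arrays labelled miR-196b, against 6.17, 6.08 and 6.18 in the empty-vector arrays. It was the 1 gene of the wider pathway that was lower at an unadjusted p below 0.05 (log2 change -0.20, limma unadjusted p = 0.0399, adjusted p = 0.486). The groups of AJUBA did not overlap. PUM2, a repressor that binds 3′ untranslated regions of transcripts, had 0.14, and ZC3H7A, a zinc finger protein, had 0.17. ZC3H7A was at 0.0971 without replicate 2 labelled miR-196b. Both had groups that did not overlap, and neither passed the test (limma adjusted p = 0.545 and 0.563).

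**Figure D4:**
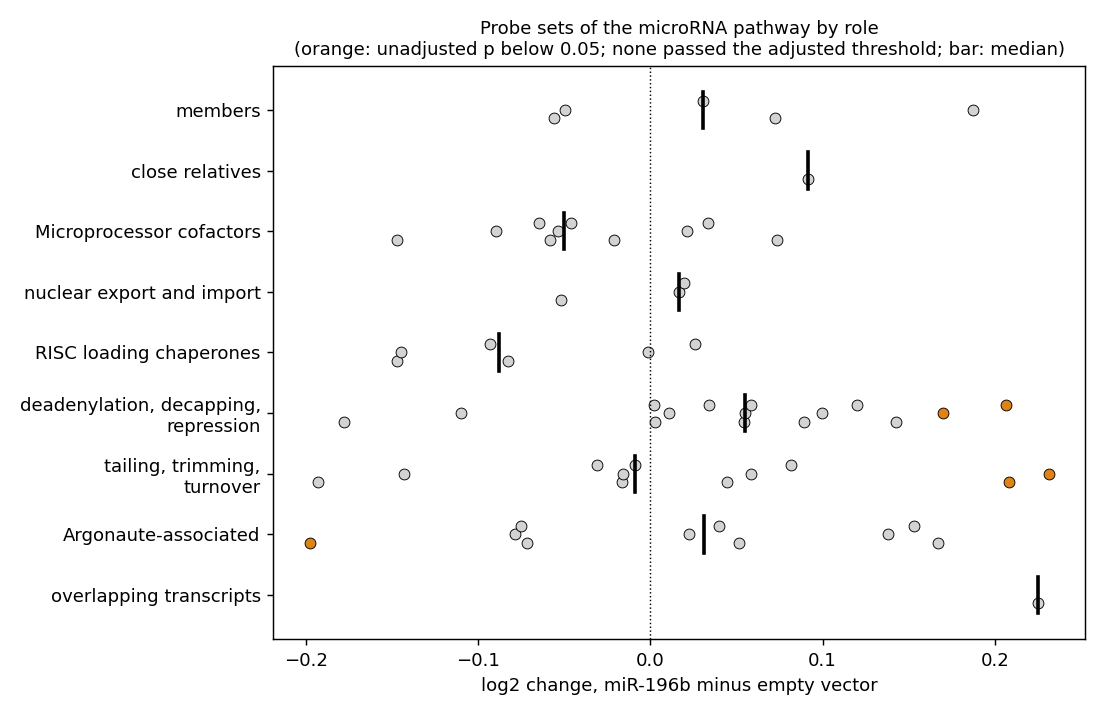
Log2 change of every measured probe set of the pathway by role, arrays labelled miR-196b minus empty-vector arrays. Orange points have an unadjusted p below 0.05 (5 of the 57 outside the members), bars are medians, and no point passed the adjusted threshold.

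The 3 genes outside these lists whose values followed TNRC6B most closely over the 6 arrays were IRAK3 (Pearson r = 0.992), RNF141 (0.988) and USE1 (0.988). IRAK3 was dim, at 2.32 to 2.76 over the 6 arrays, below the array medians of 4.34 to 4.37. All arrays entered, so the difference between groups is part of each r, and 52 named probe sets had an r above 0.95. IRAK3, RNF141 and USE1 all read highest in replicate 1 labelled miR-196b (2.76, 9.49 and 9.33), as TNRC6B did. Whether such r values exceed those of chance over 6 arrays was not tested.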

How the data were processed

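Total RNA was labelled with a whole-transcript kit and measured on 6 arrays, per the labels' protocols. The deposited values are log2 signals, 1 per probe set and array (53617 probe sets); RMA and Partek 6.6 are named, with no order or options, per the submitters' processing notes. Base 2 is not stated for the values and was inferred from the use of RMA. RMA includes a quantile normalization, so differences in overall level are removed; array medians were 4.34 to 4.37, and arrays correlated at r = 0.988 to 0.992 across probe sets. The genome build is not given in the sources used here.

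Names came from the platform annotation, with symbols updated by gene identifier to GRCh38.p14. Only probe sets with a single symbol counted as named. The other 37519, with no symbol or with several, stayed out of the fit, and those with several were not counted separately. Probe positions were not used, so signal from genes that overlap a member, such as POLR1C at XPO5 and MAP3K12 at TARBP2, was not separated.

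All 16098 named probe sets were fitted in limma 3.58.1 (R 4.3.3; lmFit, eBayes, 4 residual and 3.23 prior degrees of freedom), with Benjamini-Hochberg adjustment at 0.05. On simulated data with 16098 genes, 50 genes were planted at each of several fold sizes in 1 data set. The fit recovered 0% of those changed 1.25-fold, 34% of the 1.5-fold ones, 72% of the 2-fold ones and 100% of the 4-fold ones, and it called 6 unchanged genes. The simulated noise was independent and normal, and each SD was drawn from the fitted variance prior rather than from the gene's own arrays. These shares are therefore not detection limits of single members. Members, lists and tests were chosen with earlier results of these data known. Named genes were all members, their measured relatives and overlapping transcripts, up to 3 probe sets with the smallest p per list, and the genes most like TNRC6B. Same-numbered arrays did not deviate together (r = 0.0305, 0.0369 and 0.00850), so the numbers were not taken as pairs. Slide and scan date were not used here. Alternatives covered the filter on dim probe sets, the variance prior, the normalization, array weights, the replicate block, left-out arrays and the features tested.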

Additional observations from a re-analysis of the deposited data

How the results depend on the processing

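Of 70 recomputed changes of the 5 members, 68 kept their direction and 0 passed the adjusted threshold. The exceptions were TNRC6A, at 0.0747 without replicate 3 labelled miR-196b (range with 1 array left out -0.12 to 0.0747), and XPO5, at -0.0025 without empty-vector replicate 1 (range -0.0025 to 0.0649). Of 321 recomputed changes of the other named genes, 2 turned: IPO8 to -0.0340 without empty-vector replicate 1 (range -0.0340 to 0.0570), and MIR196B to -0.00073 without replicate 1 labelled miR-196b (range -0.00073 to 0.14). TNRC6B had an unadjusted p of 0.0366 without the dimmest 40% of named probe sets and 0.0187 with a trended, robust prior, while its adjusted p ranged from 0.311 to 0.718 over all alternatives. Named probe sets past the threshold numbered 9 in the fit reported, 22 without the dimmest 40%, 91 with the trended, robust prior, 5 without variance moderation, 2 when unnamed probe sets entered the fit as well, and 2 to 3 with 1 array left out. With the replicate number as a block 1 passed, and no member did (TNRC6B adjusted p = 0.554). Of the wider pathway 0 passed under any alternative. The number of its probe sets with an unadjusted p below 0.05 ran from 2 to 8 of up to 57, against 5 in the fit reported. The share over all named probe sets ran from 6.91% to 14.4%. The pathway count was 8 without the dimmest 40%, where that share was 14.4%. It was also 8 with the trended, robust prior (11.7%) and without variance moderation (9.73%). With 1 array left out, 16 of the 28 named changes moved by over 1.5 times (4 of members, 12 of other genes), so these small values rest on few arrays. The number of arrays limits what could be detected.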
